A study of Mus musculus with 17 samples.

Results

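Ribosome biogenesis and nucleolar genes were examined as a set of 43 genes, chosen by name from the proteins that transcribe ribosomal DNA, modify and cleave the ribosomal RNA precursor and assemble the small and large subunits. Each gene was read from 1 probe set, the one with the highest mean among probe sets that carry a single gene symbol, and 41 of the 43 were measured in this way among 22180 genes in all. The other two, Fbl (fibrillarin, the methyltransferase of box C/D particles) and Mrto4 (a large subunit assembly factor), lay only on probe sets shared with other symbols and were given no value. RNA of sorted mouse cells was hybridized to 17 Affymetrix MoGene 2.0 arrays, whose names fall into a G32 and a JS series. LY6C+ monocytes were sorted from the spleen of CD11c-DTR mice, in which the Itgax (CD11c) promoter drives a diphtheria toxin receptor and EGFP, 48 h after diphtheria toxin (DT LY6C+, 1 G32 and 3 JS arrays) or after PBS (PBS LY6C+, 1 G32 and 3 JS arrays). Toxin in this line removes dendritic cells and also some macrophages. Common monocyte progenitors (cMoP, 3 G32 arrays) came from the bone marrow of untreated C57BL/6 mice. LY6C- cells (PBS LY6C-, 3 G32 arrays named 2, new and pool) are labeled as PBS-injected, whereas the study's legend gives C57BL/6 mice. FL.G-CSF cells (3 JS arrays) are labeled as induced by Flt3L and G-CSF, whereas the study describes spleen monocytes of wild-type mice given G-CSF. Mice were 8 to 12 weeks old, and cells were sorted from single or pooled animals.

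Ribosomes are made in the nucleolus, where RNA polymerase I transcribes one long precursor that holds the 18S, 5.8S and 28S ribosomal RNAs. Box C/D and box H/ACA particles, each a guide snoRNA with a small set of proteins, methylate the precursor or turn its uridines into pseudouridine, and large assembly complexes then cut and fold it into the subunits. The pathway is costly, is known to be high in dividing and growing cells, and is a classical target of the transcription factor Myc.

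Before the members are described, the arrays need a word. The 3 JS PBS arrays stood apart from the G32 PBS array: over all genes the G32 PBS array correlated with the DT JS arrays at r = 0.974 to 0.976 and with the PBS JS arrays at 0.919 to 0.923. The JS PBS arrays also carried markers of other cells. The mean log2 level of 5 progenitor markers was 10.33 to 10.39 in them, 10.09 to 10.28 in cMoP, 6.00 to 6.36 in DT JS and 6.17 in the G32 PBS array, and that of 15 cell cycle genes was 9.37 to 9.54 in PBS JS, 10.06 to 10.20 in cMoP and 7.0 to 7.18 in DT JS. The mean of 6 monocyte markers was 9.17 to 9.36 in PBS JS against 11.34 to 11.38 in DT JS and 11.30 in the G32 PBS array. The mean of 5 T cell markers was 7.26 to 7.53 in PBS JS against 5.23 to 5.43 in DT JS. That of 8 neutrophil markers was 11.13 to 11.18 against 9.67 to 9.84. Not every marker followed its list. Of the neutrophil markers, Ly6g (mean 10.70 in PBS JS against 6.67 in DT JS) and Cxcr2 (11.69 against 8.24) differed most. Only Camp among them was lower in PBS JS (9.70 against 10.24). Flt3 of the progenitor list was level (7.39 against 7.38), and Cd2 of the T cell list differed little (7.40 against 7.01). In these bulk arrays fewer cells of a type and less RNA per cell cannot be told apart, and the labels do not say that the arrays of a group came from separate animals, so that each p measures the spread between arrays, which may be technical. The part of these marker differences in the results below was not tested.

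Among the groups, the 41 members were high in cMoP and in the JS PBS arrays and low elsewhere. Each member was centered on its mean over the 17 arrays, and the median over the members was then 0.99 to 1.24 (log2) in the cMoP arrays and 0.41 to 0.70 in the PBS JS arrays. It was -0.66 in the G32 PBS array, -0.36 in the G32 DT array, -0.46 to -0.37 in DT JS, -0.64 to -0.39 in FL.G-CSF and -0.44 to -0.32 in PBS LY6C-. For 39 of the 41 members the G32 PBS array lay nearer to the mean of the DT JS arrays than to that of the PBS JS arrays, against 63.9% of all genes. The exceptions to the shared pattern were few, among them Tcof1, Utp14a and Rrp1b, which are described with their roles.

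**Figure D1:**
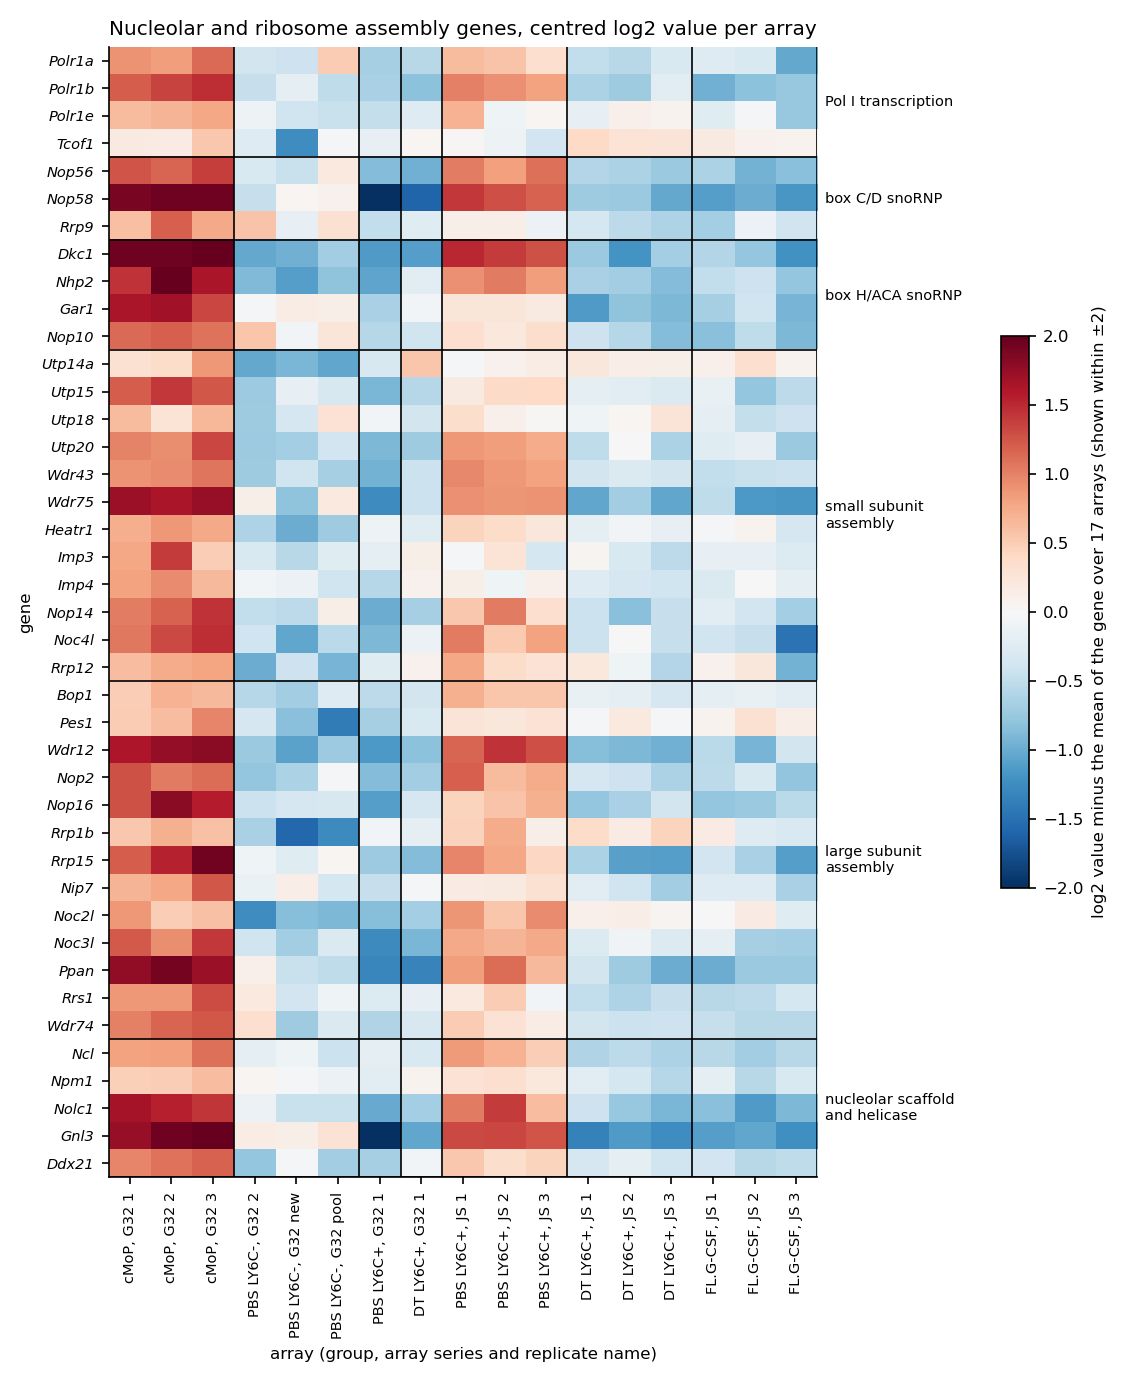
Heat map of the 41 measured members (rows, by role) in the 17 arrays (columns, by group and array series); the color is the log2 value minus the mean of the gene over all arrays, shown within ±2. The cMoP and PBS LY6C+ JS columns are red for most genes, and the G32 PBS LY6C+ column is blue like the DT and FL.G-CSF columns.

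Whether loss of CD11c+ cells went with a change in these genes was asked by comparing the 3 DT with the 3 PBS arrays of the JS series. In DT LY6C+ cells 31 of the 41 members were lower and 0 were higher (limma, Benjamini-Hochberg adjusted p under 0.05 over all genes). Over all genes 10% were lower and 9.46% were higher. The median difference was -0.93 (log2) over the members and 0.02 over all genes, and 39 of 41 members had a negative sign. Every DT array lay below every PBS array for 35 of 41 members, against 16.9% of all genes. Every DT array lay above for 1 member, against 18.5% of all genes. All 5 scaffold and helicase genes and all 4 box H/ACA genes were lower. They were followed by 11 of 13 large subunit, 2 of 3 box C/D, 7 of 12 small subunit and 2 of 4 polymerase I transcription genes. With an additive term for the array series, through which the G32 PBS array enters the comparison, 19 members were lower, as were 1273 of all 22180 genes.

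Genes of nucleolar scaffold and helicase proteins were lower in the DT than in the PBS arrays of JS, with Gnl3 in front. Gnl3 (nucleostemin, a nucleolar GTPase known from stem and dividing cells) read 10.02, 10.03 and 9.95 in the PBS JS arrays and 7.35, 7.57 and 7.46 in the DT JS arrays. The groups lay far apart, and Gnl3 was 5.80-fold lower in DT (-2.54 ± 0.12, SE, log2; limma adjusted p = 7.31e-10). Nolc1 (a chaperone of snoRNA particles) read 9.17, 9.53 and 8.75 with PBS and 7.72, 7.37 and 7.22 with DT, a difference of -1.71 ± 0.19 (limma adjusted p = 4.91e-06). Ncl (nucleolin, an abundant RNA-binding protein of the nucleolus) read 11.62, 11.46 and 11.26 with PBS and 10.16, 10.24 and 10.13 with DT, a difference of -1.27 ± 0.14 (limma adjusted p = 4.54e-06). Neither gene showed overlap between the groups. Npm1 (nucleophosmin, a chaperone of late assembly) differed by -0.65 ± 0.13 (limma adjusted p = 0.0019), from 12.05, 12.10 and 11.97 with PBS to 11.56, 11.42 and 11.20 with DT. Ddx21 (an RNA helicase linked to polymerase I) differed by -0.75 ± 0.17 (limma adjusted p = 0.00402). With the additive series term the differences of Npm1 (-0.42, limma adjusted p = 0.0895) and Ddx21 (-0.41, limma adjusted p = 0.249) no longer passed the test.

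Protein genes of the snoRNA particles were lower in DT for all 4 box H/ACA and 2 of 3 box C/D members. Dkc1 (dyskerin, the pseudouridine synthase of box H/ACA particles, also a part of telomerase) read 8.90, 8.79 and 8.68 with PBS and 6.65, 6.20 and 6.72 with DT, without overlap. It was 4.81-fold lower (-2.27 ± 0.17, limma adjusted p = 1.02e-07). Its partners Nhp2 (-1.67 ± 0.16), Gar1 (-1.16 ± 0.15) and Nop10 (-0.92 ± 0.16) were lower too, with limma adjusted p from 1.38e-06 to 0.000599. Gar1 read 7.13, 7.13 and 7.07 with PBS and 5.76, 6.09 and 5.99 with DT, and with the additive series term its difference was -0.72 (limma adjusted p = 0.0509). Nop58 and Nop56, the paired core proteins of box C/D particles, were both lower. Nop58 read 9.94, 9.83 and 9.71 with PBS and 7.83, 7.79 and 7.51 with DT (-2.12 ± 0.15, limma adjusted p = 4.89e-08), and Nop56 read 10.09, 9.88 and 10.16 with PBS and 8.48, 8.42 and 8.32 with DT (-1.64 ± 0.16, limma adjusted p = 1.31e-06). Rrp9, the protein that belongs to the U3 particle, differed by -0.54 ± 0.20 and did not pass (limma adjusted p = 0.0749), although its arrays did not overlap.

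**Figure D2:**
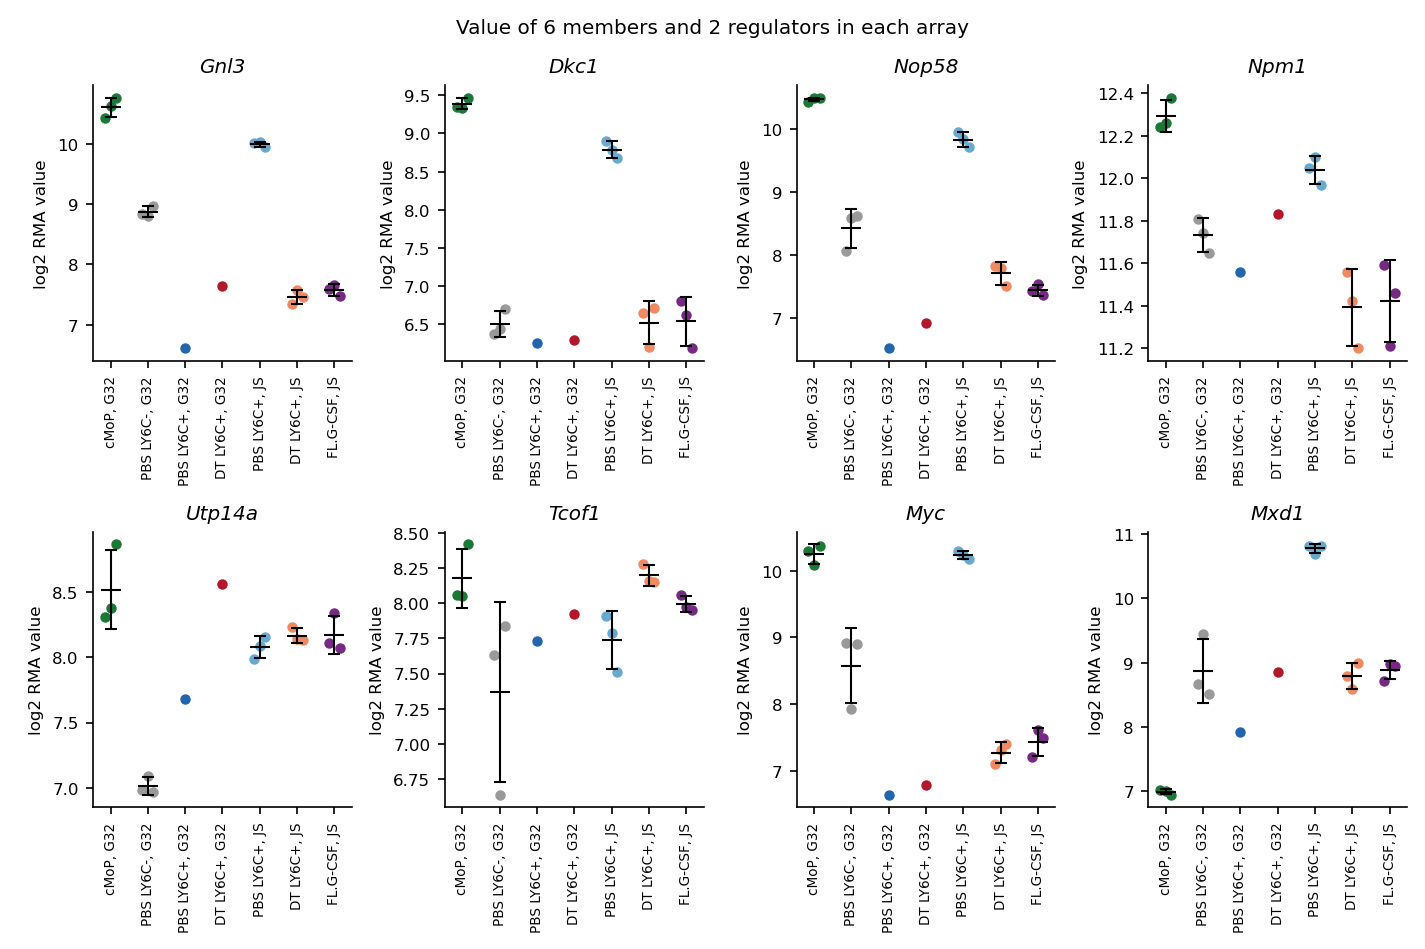
Deposited log2 RMA value (y axis) of 6 members and of the regulators Myc and Mxd1 in each array (points), by group and array series (x axis), with the mean and SD where a group has 3 arrays. Gnl3, Dkc1, Nop58 and Npm1 are high in cMoP and PBS LY6C+ JS, whereas Utp14a and Tcof1 do not follow this order.

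Genes of polymerase I transcription were split. Polr1b (the second largest subunit of the enzyme) read 7.37, 7.27 and 7.16 with PBS and 5.72, 5.64 and 6.13 with DT and was lower (-1.44 ± 0.15, limma adjusted p = 2.9e-06), as was the largest subunit Polr1a (-0.96 ± 0.23, limma adjusted p = 0.00734). Polr1e, a further subunit, read 6.79, 6.00 and 6.13 with PBS and 5.93, 6.20 and 6.16 with DT, so that a single PBS array lay above the rest and the groups overlapped (-0.21 ± 0.21, limma adjusted p = 0.582). Without that array the difference was 0.03. Tcof1 (treacle, a nucleolar organizer of ribosomal gene transcription) pointed the other way, at 7.91, 7.79 and 7.51 with PBS and 8.28, 8.16 and 8.15 with DT. Its arrays did not overlap, which in this direction held for 18.5% of all genes, and the difference of 0.46 ± 0.23 did not pass (limma adjusted p = 0.209).

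Small subunit assembly factors ranged from -1.83 to 0.09. Wdr75 (a component of the complex that first binds the precursor) read 8.78, 8.75 and 8.76 with PBS and 6.82, 7.16 and 6.82 with DT (-1.83 ± 0.23, limma adjusted p = 2.14e-05). Wdr43, of the same complex, was lower by a smaller amount (-1.21 ± 0.12, limma adjusted p = 1.52e-06), and Utp20 (a large scaffold of the small subunit processome) read 7.90, 7.86 and 7.77 with PBS and 6.52, 7.03 and 6.40 with DT (-1.19 ± 0.19, limma adjusted p = 0.000193). Heatr1, another large scaffold, differed by -0.48 ± 0.14 (limma adjusted p = 0.0214) and lost the call in 4 of the 6 fits that left out 1 JS array. Utp14a, Utp18, Imp3, Imp4 and Rrp12 did not pass. Utp14a (a factor that activates a late helicase) read 7.99, 8.09 and 8.16 with PBS and 8.23, 8.14 and 8.13 with DT, and its difference was 0.09 with a 95% interval from -0.22 to 0.39.

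Large subunit assembly factors were lower for 11 of 13 measured genes. Wdr12 read 7.77, 8.05 and 7.89 with PBS and 5.75, 5.71 and 5.65 with DT, and so was 4.59-fold lower (-2.20 ± 0.15, limma adjusted p = 3.85e-08). Wdr12 works in one complex with Bop1 and Pes1, and their differences were tested gene by gene only. Bop1 read 8.11, 7.96 and 7.96 with PBS and 7.26, 7.22 and 7.07 with DT (-0.82 ± 0.13, limma adjusted p = 0.000203), whereas Pes1 read 8.75, 8.71 and 8.78 with PBS and 8.47, 8.69 and 8.47 with DT (-0.20 ± 0.21, limma adjusted p = 0.592). The 95% interval was -0.64 to 0.23 for Pes1 and -1.10 to -0.55 for Bop1, and these overlap. Nop2 (an RNA methyltransferase of the large subunit) was lower (-1.33 ± 0.20, limma adjusted p = 0.000131), as were Rrp15 (-1.66 ± 0.22) and Ppan (-1.56 ± 0.19). Rrs1, a regulator of assembly that brings in the 5S particle, differed by -0.75 ± 0.18 (limma adjusted p = 0.006), or by -0.53 with the additive series term (limma adjusted p = 0.0645). Rrp1b did not pass (-0.12 ± 0.21, limma adjusted p = 0.79).

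The stretch before the transcription start is shown for 6 members. They are those with 3 of the largest DT against PBS differences in JS (Gnl3, Dkc1 and Wdr12), a box H/ACA gene with an ETS motif (Nhp2) and a pair with an E-box. Of the pair, Nop2 was lower in DT and Utp18 was not called. Sequences are the 150 bases before the start in the RefSeq promoter table (GRCm38.p6), written along the gene, with the E-box CACGTG, the site of Myc and related factors, and the ETS motif CCGGAAGT in capitals on either strand.
Gnl3, chr14:31019132-31019281, minus strand: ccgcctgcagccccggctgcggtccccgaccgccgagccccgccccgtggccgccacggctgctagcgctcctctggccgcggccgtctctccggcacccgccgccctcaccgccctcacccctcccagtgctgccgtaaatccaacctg
Dkc1, chrX:75095704-75095853, plus strand: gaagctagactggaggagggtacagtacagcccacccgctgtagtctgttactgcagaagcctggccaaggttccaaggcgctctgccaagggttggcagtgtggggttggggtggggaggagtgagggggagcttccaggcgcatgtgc
Wdr12, chr1:60098501-60098650, minus strand: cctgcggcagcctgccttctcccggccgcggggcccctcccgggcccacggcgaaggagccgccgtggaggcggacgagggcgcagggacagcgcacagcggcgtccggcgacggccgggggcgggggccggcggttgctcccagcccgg
Nhp2, chr11:51619623-51619772, plus strand: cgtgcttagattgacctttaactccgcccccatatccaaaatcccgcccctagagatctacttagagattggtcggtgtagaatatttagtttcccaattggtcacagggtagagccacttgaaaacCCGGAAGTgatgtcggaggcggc
Nop2, chr6:125131733-125131882, plus strand: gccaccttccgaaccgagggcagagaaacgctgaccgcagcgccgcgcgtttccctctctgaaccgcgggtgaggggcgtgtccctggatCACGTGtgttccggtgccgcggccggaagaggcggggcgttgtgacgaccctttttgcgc
Utp18, chr11:93885767-93885916, minus strand: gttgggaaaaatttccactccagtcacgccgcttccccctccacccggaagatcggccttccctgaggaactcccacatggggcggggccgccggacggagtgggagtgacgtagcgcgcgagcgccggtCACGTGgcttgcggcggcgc
The table held 41 windows of 300 bases, from 250 before to 50 after an annotated start, which for Nop58 and Gar1 lies within the annotated span of the gene, for 37 of the 43 members, and none was used for Bop1, Fbl, Npm1, Tcof1, Rrs1 and Rrp12. CACGTG stood in 6 of these 41 windows (Imp4, Nop2, Utp20, Pes1, Utp18 and Wdr43), which is 14.6% against 7.15% of all 32851 windows. CCGGAAGT stood in 10 windows of 9 members (24.4% against 3.89% of all windows), among them Heatr1, Gar1, Nhp2 and Noc2l. CCAAT stood in 36.6% of member windows against 37.4% of all, and the motifs searched for NRF1 (0.971% of all windows) and YY1 (0.852%) stood in no member window. Of the 6 members with CACGTG, Nop2, Utp20 and Wdr43 were lower in DT, whereas Imp4, Pes1 and Utp18 were not called. A match describes the letters only.

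In the G32 series, with 1 DT and 1 PBS array, the members were not generally lower in DT. The DT array lay above the PBS array for 33 of 41 members, with a range from -0.30 for Utp18 to 1.04 for Gnl3. The median difference was 0.28 (log2) over the members and -0.01 over all genes. This pair was not tested by itself. The difference between the array series was tested in the same model, which assumes that the single arrays vary like the other groups. The DT minus PBS difference was lower in JS than in G32 for 25 of 41 members and higher for 0 (limma adjusted p under 0.05), against 5.36% lower and 2.94% higher of all genes. Gnl3 read 6.61 in the G32 PBS array and 7.65 in the G32 DT array, and its difference of differences was -3.58 ± 0.24 (limma adjusted p = 4.55e-07). Wdr75 (-2.65 ± 0.46), Wdr12 (-2.53 ± 0.31), Nhp2 (-2.51 ± 0.32), Nop58 (-2.51 ± 0.30) and Dkc1 (-2.29 ± 0.35) followed, with limma adjusted p from 7.9e-05 to 0.00169. Between the series it was the PBS values that differed. From G32 to JS the PBS values were higher for 41 of 41 members (median 1.17, against -0.07 over all genes). The DT values were split 20 to 21 (median -0.01, against -0.03 over all genes). Which of the PBS arrays shows the resting monocyte cannot be told from the member values alone. In marker levels the arrays differed. The mean of 6 monocyte markers was 9.17 to 9.36 in PBS JS and 11.30 in the G32 PBS array, and that of 5 progenitor markers was 10.33 to 10.39 and 6.17. The part of this in the member values was not tested. Without JS PBS replicate 1 the count of members with a lower difference in JS than in G32 was 16 of 41. Whether calls were lost over all genes alike in that fit is not given here.

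**Figure D3:**
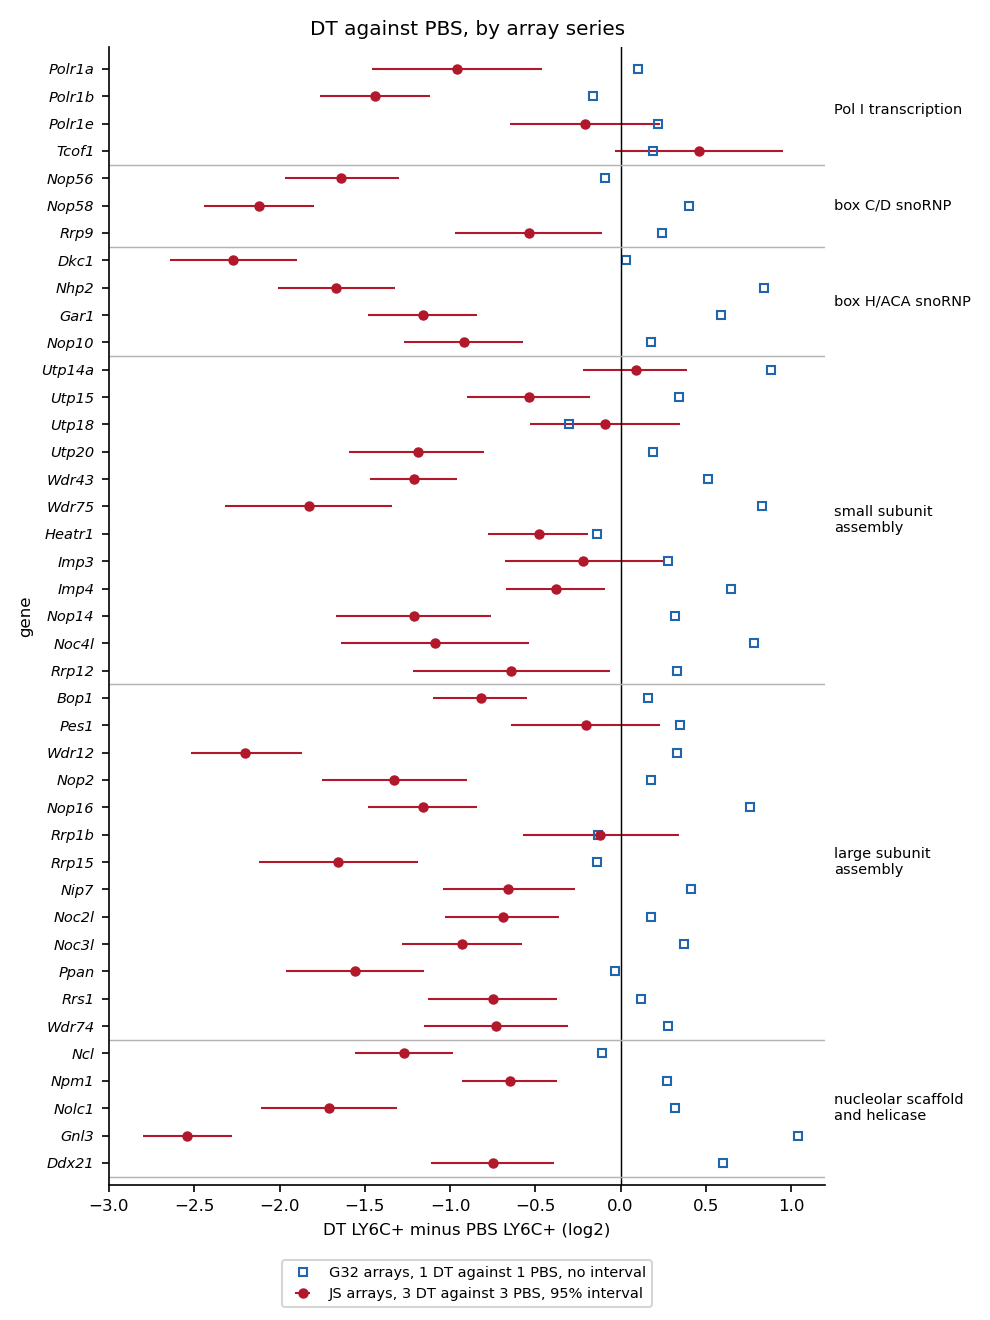
Difference of DT minus PBS LY6C+ (x axis, log2) for each of the 41 members (y axis, by role) in the JS arrays (filled circles, 95% interval of the limma fit) and in the single pair of G32 arrays (open squares). Most circles lie left of 0, whereas the squares lie between -0.30 and 1.04.

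FL.G-CSF cells were set against the same PBS JS arrays, which both comparisons therefore share. In them 31 of 41 members were lower and 0 higher (limma adjusted p under 0.05), against 9.80% lower and 9.13% higher of all genes, with a member median of -1.04. Treatment and mouse line differ together in this comparison and cannot be told apart. Gnl3 read 7.60, 7.66 and 7.47 in FL.G-CSF (-2.42 ± 0.12, limma adjusted p = 1.33e-09), and Nop58 read 7.43, 7.54 and 7.37 (-2.38 ± 0.15, limma adjusted p = 1.46e-08). Dkc1 (-2.25 ± 0.17), Nolc1 (-1.98 ± 0.19), Wdr12 (-1.91 ± 0.15) and Wdr75 (-1.84 ± 0.23) were next. Tcof1 (0.26 ± 0.23) and Utp14a (0.09 ± 0.15) did not pass here, nor did Pes1 (-0.09 ± 0.21). Polr1e read 5.85, 6.05 and 5.33 and did not pass (-0.57 ± 0.21, limma adjusted p = 0.0705), and it did so without FL.G-CSF replicate 2 (adjusted p = 0.0395) or PBS JS replicate 2 (adjusted p = 0.0396 by limma).

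Set directly against DT, FL.G-CSF differed for 0 of 41 members (limma adjusted p under 0.05), with 0.0631% of all genes called in either direction. An unadjusted limma p under 0.05 was found for 2 of the 41 members and for 1662 of all 22180 genes. The member differences ran from -0.48 for Noc4l to 0.28 for Gar1 and Wdr12, and the widest of the 95% intervals reached -1.03 at the low and 0.69 at the high end. For Gnl3 the interval was -0.15 to 0.38. Noc4l (a small subunit export factor) read 7.39, 7.33 and 6.30 in FL.G-CSF and 7.35, 7.79 and 7.32 in DT, with replicate 3 of FL.G-CSF below the rest. The next in size were Rrp1b (-0.45 ± 0.21), Utp18 (-0.44 ± 0.21), Polr1e (-0.36 ± 0.21), Polr1b (-0.32 ± 0.15) and Noc3l (-0.31 ± 0.16), with limma adjusted p from 0.659 to 0.729.

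In the G32 series the progenitor was compared with the LY6C- cells of the spleen, 3 arrays against 3. All 41 members were higher in cMoP (limma adjusted p under 0.05), against 19.4% higher and 13.5% lower of all genes. The member median was 1.56, and differences ran from 0.56 for Npm1 to 2.88 for Dkc1. Dkc1 read 9.35, 9.34 and 9.47 in cMoP and 6.37, 6.44 and 6.70 in PBS LY6C- (2.88 ± 0.17, limma adjusted p = 2.69e-09). Nhp2 read 9.82, 10.44 and 10.01 against 7.49, 7.27 and 7.58 (2.64 ± 0.16, limma adjusted p = 3.5e-09), and Wdr12 read 8.22, 8.36 and 8.41 against 5.86, 5.53 and 5.87 (2.58 ± 0.15, limma adjusted p = 2.34e-09). None of these groups overlapped, and only Utp18 had overlapping arrays among the 41, whereas 53.4% of all genes overlapped and 21.9% were higher in every cMoP array. Ppan (2.09 ± 0.19), Nop58 (2.04 ± 0.15) and Noc4l (1.95 ± 0.26) came next. Smaller differences were those of Ncl (1.14 ± 0.14), Bop1 (1.12 ± 0.13), Rrs1 (1.11 ± 0.18) and Polr1e (1.01 ± 0.21), while larger ones were those of Polr1b (1.73 ± 0.15), Utp20 (1.67 ± 0.19), Nop2 (1.63 ± 0.20), Ddx21 (1.58 ± 0.17), Heatr1 (1.56 ± 0.14) and Pes1 (1.55 ± 0.21). The 10 members that were not called in DT against PBS were thus all higher in cMoP. Cell cycle genes moved beside them, with 15 of 15 measured higher in cMoP, and tissue of origin differs between these groups too. Called lower in cMoP were 2 of 4 B cell, 3 of 5 NK cell, 3 of 5 T cell and 3 of 4 dendritic cell markers. In the NK cell list 1 marker was called higher in cMoP, namely Nkg7 (mean 11.60 against 8.98). The part of these cells was not tested.

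Against the LY6C+ arrays of the same series, 1 DT and 1 PBS, 38 of 41 members were higher in cMoP and 0 lower (limma adjusted p under 0.05), against 14.6% higher and 11.8% lower of all genes. Nop58 read 10.43, 10.48 and 10.48 in cMoP against 6.93 in the DT and 6.53 in the PBS array, which is 13.3-fold (3.73 ± 0.17, limma adjusted p = 1.62e-10). Gnl3 was 11.2-fold higher (3.49 ± 0.14, limma adjusted p = 4.04e-11), at 10.44, 10.64 and 10.76 in cMoP. Ppan (3.13 ± 0.21), Dkc1 (3.11 ± 0.19), Wdr12 (2.72 ± 0.17) and Wdr75 (2.54 ± 0.26) followed. Tcof1 (0.35 ± 0.26, limma adjusted p = 0.365), Utp14a (0.40 ± 0.16, limma adjusted p = 0.0849) and Rrp12 (0.80 ± 0.30, limma adjusted p = 0.0648) did not pass. Utp14a read 8.31, 8.38 and 8.87 in cMoP and 8.56 in the G32 DT array, and so overlapped. Npm1 was higher by 0.60 ± 0.15 (limma adjusted p = 0.0057), which without the G32 PBS array was 0.46 (limma adjusted p = 0.115).

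This comparison shares no array with that of DT and PBS in JS, and the members kept a like order in both. Across the 41 genes the differences correlated at Pearson's r = -0.90 and Spearman's rho = -0.89, against -0.63 and -0.48 across all 22180 genes. Genes are not independent replicates, and the points of both axes share the probe sets and their affinities. The JS PBS arrays lay below the cMoP arrays for 40 of 41 members, with values from -1.33 for Gar1 to 0.15 for Noc2l. The median was -0.50 over the members and -0.04 over all genes. As these groups lie in different array series, series and group cannot be told apart.

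**Figure D4:**
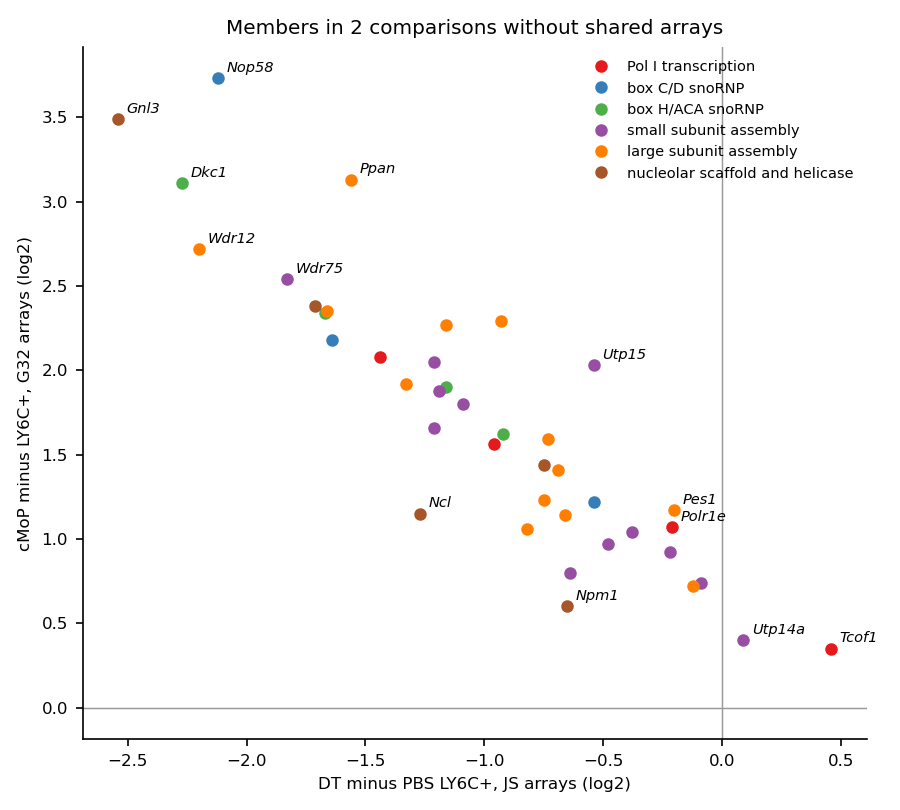
Difference of DT minus PBS LY6C+ in the JS arrays (x axis, log2) against that of cMoP minus LY6C+ in the G32 arrays (y axis, log2) for the 41 members (points, color by role); the comparisons share no array. Gnl3, Dkc1 and Nop58 lie at the upper left and Utp14a and Tcof1 at the lower right.

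LY6C- cells were set against the G32 LY6C+ arrays in a comparison added after the data were seen. Of the 41 members 6 were higher and 3 lower in LY6C- (limma adjusted p under 0.05), against 3.35% and 6.45% of all genes. Gnl3 read 8.84, 8.81 and 8.98 in PBS LY6C- against 7.65 and 6.61 in the LY6C+ arrays (1.75 ± 0.14, limma adjusted p = 5.37e-07), and Nop58 read 8.07, 8.58 and 8.62 against 6.93 and 6.53 (1.69 ± 0.17, limma adjusted p = 7.69e-06). Ppan (1.04 ± 0.21), Nop56 (0.73 ± 0.18), Nop10 (0.73 ± 0.18) and Noc3l (0.64 ± 0.18) were the other higher members. Utp14a was the reverse, at 6.98, 7.09 and 6.97 in LY6C- and 8.56 and 7.68 in the DT and PBS arrays of LY6C+ (-1.11 ± 0.16, limma adjusted p = 0.000275). Rrp1b (-1.05 ± 0.24) and Heatr1 (-0.59 ± 0.16) were lower as well. With the additive series term 2 members were higher and the call of Gnl3 was lost (1.75, limma adjusted p = 0.0549). Without the G32 DT array 3 members were higher and 1 was lower, with Nop56 at 0.69 (limma adjusted p = 0.102), and without the G32 PBS array 1 was lower. Markers of other cells were higher in the LY6C- arrays as well. The mean level was 6.13 to 8.08 against 5.27 and 5.32 in the G32 PBS and DT arrays for 4 B cell markers (3 called higher), and 5.57 to 8.39 against 5.47 and 5.30 for 5 NK cell markers (3 called). It was 6.6 to 7.87 against 5.84 and 5.68 for 4 dendritic cell markers (2 called), and 6.73 to 7.67 against 6.17 and 5.95 for 5 progenitor markers (2 called). Of the progenitor markers only Kit (mean 9.14 against 5.82 and 5.51) and Flt3 (9.33 against 6.98 and 6.99) were higher, and Flt3 is in the dendritic cell list too. Cd34 (5.54 against 5.59 and 5.44) and Myb (5.43 against 5.66 and 5.21) were level, and Mpo was lower (6.13 against 6.82 and 6.58). All 6 monocyte markers were lower. Their part in these values was not tested.

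Other genes of the pathway, 105 of which were measured, were called in the direction of the members in smaller shares. In DT against PBS (JS) 51 were lower and 3 higher, against 10% and 9.46% of all genes. In FL.G-CSF against PBS 55 were lower and 3 higher, against 9.80% and 9.13% of all genes. In cMoP against PBS LY6C- 90 were higher and 0 lower, against 19.4% and 13.5% of all genes. By class, 23 of 46 other large subunit genes, 17 of 35 small subunit genes and 9 of 12 exosome genes were lower in DT. Of other polymerase I genes 2 of 12 (16.7%) were lower, near the 10% of all genes. Dis3 (a catalytic nuclease of the RNA exosome) differed by -2.04 ± 0.17 (limma adjusted p = 3.22e-07), and Mdn1 (a giant ATPase that strips factors from the pre-60S particle) by -1.85 ± 0.12 (limma adjusted p = 2.24e-08). The 3 that were higher in DT were Nop53 (0.76 ± 0.15), Wdr3 (0.60 ± 0.14) and Nsa2 (0.47 ± 0.11), with limma adjusted p from 0.00107 to 0.00657, and Nop53 was lower in cMoP than in G32 LY6C+ cells (-0.57 ± 0.16, limma adjusted p = 0.0152).

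Regulators of the pathway showed 2 patterns. Myc read 10.30, 10.23 and 10.18 in PBS JS and 7.11, 7.31 and 7.41 in DT JS (-2.96 ± 0.21, limma adjusted p = 5.37e-08). It read 10.29, 10.08 and 10.37 in cMoP, 8.91, 7.93 and 8.90 in PBS LY6C-, and 6.80 and 6.65 in the G32 DT and PBS arrays. Like most members, Myc was thus high in cMoP and PBS JS. Mxd1, which encodes a partner of Max that opposes Myc at the E-box, was lower in DT too (-1.99 ± 0.19, limma adjusted p = 1.33e-06), at 10.82, 10.70 and 10.82 with PBS and 8.79, 8.58 and 8.99 with DT. In cMoP, however, Mxd1 read 7.01, 7.0 and 6.94 and was lower than in PBS LY6C- (-1.89 ± 0.19, limma adjusted p = 1.1e-06) and in G32 LY6C+ cells (-1.40 ± 0.22, limma adjusted p = 0.000105). The JS PBS arrays therefore were high in both genes, and the cMoP arrays in Myc alone. Mycn was lower in DT by 0.58 on the log2 scale (SE 0.14, limma adjusted p = 0.00711). It read 5.06, 4.90 and 5.02 with PBS and 4.37, 4.53 and 4.34 with DT, all below the array medians of 5.31 to 5.53. Mycl (0.01 ± 0.16) and Mxi1 (-0.35 ± 0.21) did not pass. Rrn3, the initiation factor that ties polymerase I to growth signals, was lower in DT (-0.52 ± 0.15, limma adjusted p = 0.0216) and higher in cMoP than in PBS LY6C- (1.21 ± 0.15, limma adjusted p = 1.03e-05). Ubtf, the upstream binding factor of ribosomal genes, did not pass in DT (-0.15 ± 0.14) and was higher in cMoP (0.70 ± 0.14, limma adjusted p = 0.000882).

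Some members host snoRNA genes in their introns, and 9 of these have a probe set of their own. The hosts are Nop56 (Snord110), Nop58 (Snord70 and Snord11), Wdr43 (Snord92 and Snord53), Ncl (Snora75 and Snord82) and Gnl3 (Snord69 and Snord19), and this group was chosen after the data were seen. None of the 9 passed in DT against PBS, where their differences ran from -1.09 for Snord69 to 0.23 for Snord82. All but Snord82 were negative. All 5 hosts were lower, Wdr43 by the least (-1.21). The SE was 0.23 to 0.79 for the snoRNAs and 0.12 to 0.16 for the hosts. The 95% intervals of Snord110 (-1.9 to 0.15), Snord92 (-2.63 to 0.73) and Snord53 (-1.3 to 0.48) held their host's difference. The other intervals did not. Snord70 and Snord19 read at most 4.51 and 4.61 in these JS arrays, below the lowest array median of 5.31. Whether the snoRNAs followed their hosts was not tested. In cMoP against G32 LY6C+ cells Snord19 (3.15 ± 0.37, limma adjusted p = 7.06e-06), Snord70 (3.02 ± 0.48), Snord69 (2.52 ± 0.66) and Snord110 (1.87 ± 0.54) were higher. Snord19 read 6.14, 6.96 and 6.74 in cMoP against 3.33 and 3.59. Against PBS LY6C- only Snord70 (2.40 ± 0.43) and Snord19 (2.33 ± 0.33) of the 9 were called higher in cMoP. Mature snoRNA and host precursor cannot be told apart on these probes.

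Several members had more than 1 single-symbol probe set. For Ddx21 (-0.75 and -0.86) and Npm1 (-0.65 and -0.89) both were lower in DT, as were both of Ppan (-1.56 and -2.09). For Nop56 the brightest was lower (-1.64), whereas the others differed by -0.50 (limma adjusted p = 0.327) and -1.36 (limma adjusted p = 0.0824), and the second probe set of Rrs1 differed by -0.38 (limma adjusted p = 0.168). Both probe sets of Imp3 failed the test (-0.22 and -0.16).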

How the data were processed

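RNA of sorted cells was measured on 17 arrays. The authors made log2 values per probe set from the scans with RMA in oligo (version not given in the sources used here), and these were used as deposited, with no missing value. No detection calls were used, and the small number of arrays limits precision. Of 41345 probe sets, 25341 are in the array annotation (23521 with a single symbol, 1820 with several). Each of 22180 genes was represented by its single-symbol probe set of highest mean, and 21994 matched a RefSeq gene entry.

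limma 3.58.1 in R 4.3.3 was fitted with a mean for every group within each array series (7 means, 10 residual degrees of freedom). Two-sided p-values were adjusted by Benjamini-Hochberg over all genes and called at 0.05. Named in the text are the 6 members of largest difference in every comparison, a fixed group of members covering all roles, and regulators of the Myc family and polymerase I, and others named by role were chosen with values known. Members and lists were chosen with earlier results of these data known. The alternatives tried were an additive series term, a fit to the compared arrays alone, a filter at the 30th percentile of the mean, averaging of probe sets, a further quantile step, weights per array, a trended robust variance, a replicate block and omission of single arrays. The fit was tested on simulated data. Python 3.11.15 with matplotlib 3.10.9 drew the plots.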

Additional observations from a re-analysis of the deposited data

Results flagged for a closer look

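In the PBS LY6C+ group, with 3 JS arrays and 1 G32 array, the G32 array stood far below the others for 14 of the 26 members examined. The gap to the nearest array, as a share of the range of the 4 arrays, was 0.983 for Wdr75, 0.979 for Gnl3, 0.96 for Noc3l, 0.94 for Gar1, 0.931 for Nop58, 0.927 for Utp20 and 0.92 for Dkc1. It was 0.916 for Pes1, 0.905 for Nhp2, 0.894 for Wdr12, 0.878 for Bop1, 0.871 for Polr1b, 0.858 for Nop56 and 0.844 for Ddx21. The regulators Myc (0.966) and Mxd1 (0.959) showed the same gap. Over all 41 measured members the G32 PBS array stood apart below the others for 18 (43.9%), against 4.77% of all genes. Chance sets any 1 of the 4 arrays apart, at either end, in about 1 in 20 groups. That is not the rate for the G32 array at the low end alone, which is lower. The 26 were named partly for differences that use these arrays, so their count is given as a description.

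The DT against PBS difference was lower in the JS than in the G32 arrays for 25 members (limma interaction). Among the named ones this difference of differences was -3.58 for Gnl3, -2.65 for Wdr75, -2.53 for Wdr12, -2.51 for both Nhp2 and Nop58, -2.29 for Dkc1 and -1.75 for Gar1. It was -1.55 for Nop56, -1.51 for Nop2, -1.38 for Utp20, -1.34 for Ddx21, -1.27 for Polr1b, -1.16 for Ncl, -0.99 for Bop1 and -0.92 for Npm1, whose call was lost in 5 of the 6 fits without a single JS array of DT or PBS. The G32 side rests on a single array of each group.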

How the results depend on the processing

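In DT against PBS (JS) the count of lower members was 31, with 19 under an additive series term, 32 under a replicate block and 28 to 30 when single arrays were left out. The count of higher members was 1 with the replicate block and 1 with only the compared arrays, against 0. In FL.G-CSF against PBS the lower count of 31 became 26 with the additive term, 33 with the block and 29 to 33 with single arrays left out. Labels reuse replicate numbers across the JS groups. Same-numbered arrays deviated together at r of 0 to 0.09, against -0.063 to 0.047 for arrays of other numbers. Of 9 arrays 5 correlated best with their own number. These values do not settle whether the numbers mark pairs. The main fit did not take them as pairs, and the counts with a replicate block are those given above. Leaving out single arrays gave 40 to 41 higher members in cMoP against PBS LY6C-, 35 to 37 in cMoP against LY6C+, 16 to 23 lower members in the difference between the series, and, in PBS LY6C- against LY6C+, 3 to 8 higher and 1 to 3 lower. The last comparison had 2 higher members with the additive term, where 512 of all genes were higher. Polr1e in DT against PBS changed sign, to 0.03 without PBS JS replicate 1, and otherwise reached -0.36 without PBS JS replicate 2. With the additive term Gar1 (-0.72) and Rrs1 (-0.53) lost the call in DT against PBS. Nop56 lost it in the difference between the series with the mean of its probe sets (-0.62, limma adjusted p = 0.654). The counts with single arrays left out are of members only, without the share of all genes beside them. The cause was not tested in any of these cases.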
